A study of Sus scrofa with 6 samples.

Results

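The porcine midbrain-like organoids (pMLOs) sampled on day 11 (D11) held 2169 cells in which transcripts of both LMX1A and RSPO2 were detected, called double-positive cells here, among 27723 D11 cells within the depth limits, 36699 D11 barcodes and 104820 barcodes of the whole series. A cell was taken as double-positive when it had at least 2000 UMIs (unique molecular identifiers, each counting 1 captured transcript), at most 7000 detected genes, at least 1 UMI of LMX1A and at least 1 of RSPO2. It also had fewer than 3 UMIs of STMN2, a neuronal transcript, and fewer than 3 of the 5 mitosis genes TOP2A, CENPF, NUSAP1, UBE2C and BIRC5 detected. The comparison cells of D11 were within the same depth limits, had no UMI of LMX1A or RSPO2, and had at least 2 of the 3 floor plate genes FOXA2, SHH and CORIN detected. There were 974 and 1195 double-positive cells and 3061 and 3823 comparison cells in libraries A and B. The members were therefore chosen on measured values, and the levels of these 11 genes are given below as a description, without a test.

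All organoids came from 1 embryonic stem cell line, IVF_1_ pESC_FIW, derived from an in vitro fertilized pig embryo, and no group carried a genetic change or lacked the patterning agents. Embryoid bodies were exposed to SB431542 and Noggin, which block TGF-beta and BMP signalling, together with SHH-C24II, a form of sonic hedgehog, and CHIR99021, which activates WNT signalling through inhibition of GSK3. FGF8 came next, first alone and then together with BDNF and ascorbic acid, and the D11 organoids were collected in this medium with FGF8. The D28 and D45 organoids had in addition been embedded in Matrigel and matured with BDNF, GDNF, ascorbic acid, db-cAMP and DAPT, which blocks Notch signalling, with no FGF8 given for this stage. Each day had 2 single-cell libraries (A and B, 10x Genomics GEM-X 3' chemistry), which the study calls biological duplicates. The labels do not say whether they came from separate cultures, so p-values measure the spread between these libraries, and day of culture cannot be told apart from the medium used.

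LMX1A is a LIM homeodomain transcription factor that specifies the midbrain floor plate, the ventral midline from which dopaminergic neurons arise, and it is also used by the roof plate at the dorsal midline. RSPO2 encodes a secreted R-spondin, which binds LGR receptors and removes the ubiquitin ligases ZNRF3 and RNF43 from the cell surface, so that Frizzled receptors persist and WNT signals are strengthened. In the embryo the floor plate secretes SHH, and along the head-to-tail axis OTX2 marks forebrain and midbrain, EN1 the midbrain and isthmus, and GBX2 the anterior hindbrain.

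Levels are given as CPM, the counts per 1000000 UMIs summed over the cells of 1 gate in 1 library, in the order library A and library B. The double-positive sums of D11 rested on 11963714 and 14064123 UMIs, and a double-positive cell had a median of 12102 and 11677 UMIs, against 12032 and 11996 in comparison cells. A doublet caller marked 7.19% and 9.79% of double-positive cells and 5.55% and 6.07% of comparison cells. It was set to mark the top-scoring cells of each library up to an expected rate, so the rate of a library was fixed in advance. Between 55 and 119 cell barcode sequences occurred in both members of any pair of the 6 libraries, and these were not removed. Tests compared sums over libraries with edgeR's quasi-likelihood test, and an adjusted p is Benjamini-Hochberg adjusted over all genes tested, with a threshold of 0.05. No value of a single cell was treated as a replicate.

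The rule genes themselves lay well above the entry level in most members. LMX1A (chr4:85403287-85570738, Sscrofa11.1) had 598 and 558 CPM in double-positive cells, and 229 and 211 CPM in cells that had LMX1A without RSPO2 and otherwise met the same limits (LMX1A-only, 1390 and 2042 cells). RSPO2 (chr4:29415774-29577890) had 634 and 562 CPM in double-positive cells, and 314 and 243 CPM in the 177 and 288 cells with RSPO2 and no LMX1A (RSPO2-only). Cells just inside the rule, with exactly 1 UMI of each gene, numbered 39 and 59, and had 109.7 and 131 CPM of LMX1A. Members with at least 3 UMIs of each gene numbered 657 and 745 of the 974 and 1195.

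Detection of RSPO2 was several times more frequent among cells with LMX1A than among cells without it. RSPO2 was detected in 42.5% and 40.6% of D11 cells with LMX1A and in 4.09% and 7.26% of cells without it, all within the depth limits. In cells with at least 10 UMIs of STMN2, which stand for neurons, both genes were detected in 0.855% and 2.01% of cells at a median of 13275.5 and 13213 UMIs. When every cell was thinned to 2000 UMIs, RSPO2 was detected in 36.8% and 32.9% of cells with LMX1A and in 3.89% and 5.40% of those without.

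The floor plate genes of the comparison rule were present but lower in the double-positive cells. FOXA2, a forkhead factor that defines the floor plate, had 54.4 and 56.8 CPM against 196 and 189.9 in comparison cells, whose rule asks for these genes. SHH had 57.4 and 50.6 against 91.9 and 77.1 CPM, and CORIN, a serine protease of the midbrain floor plate surface, 287 and 194 against 421 and 362 CPM. Of the double-positive cells 15.9% and 17.2% had none of the 3 genes detected, 35.7% and 38.1% had 1, 34.9% and 32.6% had 2, and 13.4% and 12.1% had all 3.

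The 6 genes that only the double-positive rule limits were lower there by that choice. STMN2 had 14.5 and 22.2 CPM against 73.7 and 97.3 CPM. TOP2A, a topoisomerase of dividing cells, had 7.27 and 10.4 against 379 and 365 CPM, and CENPF, a kinetochore protein, 9.95 and 14.6 against 357 and 325 CPM. NUSAP1, a spindle protein, kept the highest level of the 5 mitosis genes, at 199 and 203 against 519.7 and 533 CPM. UBE2C had 5.18 and 6.11 against 127 and 142 CPM and BIRC5 11.03 and 14.1 against 95.2 and 101 CPM.

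Markers that the rule did not use were read next, to check what kind of cell this is. The 6 other floor plate markers, among them FOXA1, FERD3L, NTN1, SPON1 and LMX1B, summed to 1595 and 1458 CPM in double-positive cells and to 3271 and 2672 CPM in comparison cells, with none at 0 in either. The 7 neuron markers other than STMN2 summed to 223 and 221 CPM against 346 and 320. The 6 dopamine neuron markers summed to 106 and 110 CPM against 105 and 120. Most of this was NR4A2, with a mean of 87.8 CPM in double-positive and 90.4 CPM in comparison cells. TH, the enzyme that limits dopamine synthesis, had 0.502 and 0.995 CPM in double-positive cells. It was detected in 0.616 and 1.17% of them, against 42.2 and 39.6% of the STMN2-high cells. The comparison rule asks for floor plate genes, and the double-positive rule alone limits STMN2. The directions of the floor plate and neuron sums therefore cannot be told apart from the choice of cells.

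Markers of other cell types were mostly low. The 13 roof plate markers summed to 159 and 156 CPM, against 127 and 115 in comparison cells, and MSX2, RSPO1, ZIC1 and OLIG3 were at 0 in the double-positive sums. Fibroblast markers (4 genes) summed to 19.8 and 19.4 CPM against 7.16 and 10.4, endothelial markers (3) to 21.1 and 15.6 against 17.2 and 14.3, and immune markers (3) to 5.43 and 6.75 against 6.60 and 5.85. C1QA, a complement gene of the longer endothelial and immune list, exceeded that immune sum, with a mean of 44.2 CPM in double-positive cells. It was called lower there than in the matched comparison cells described below. Neural crest markers (2) summed to 2.17 and 2.56 CPM, with FOXD3 at 0, against 1.41 and 1.48. Choroid plexus markers (4) summed to 42.0 and 41.1 CPM against 27.2 and 27.4, and NANOG was at 0. The part of these transcripts in the results that follow was not tested.

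The first comparison asked how the double-positive cells differed from the floor plate cells of the same 2 libraries that had neither transcript. Of 15658 genes tested 801 (5.12%) were higher and 883 (5.64%) lower in double-positive cells, together 10.8% of genes, and 3486 had an unadjusted p under 0.05. Both gates come from the same libraries, and with the library as a block 2443 genes (15.6%) were higher and 2845 (18.2%) lower, a set that held all 801 of the rises and 882 of the 883 falls. Leaving out a D11 library left 1 sum per gate on D11, and the number fell to 211 genes without library A and 245 without library B. Leaving out D28 library A or B raised it to 3984 and 3949. The gates were set on these D11 libraries, so genes whose levels follow LMX1A, RSPO2, FOXA2, SHH or CORIN from cell to cell differ by the choice of cells.

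The largest rise was that of LRRTM3 (chr14:70172460-70352073), a leucine-rich adhesion protein of synapses. LRRTM3 had 316 and 250.5 CPM in double-positive cells and 1.33 and 2.00 CPM in comparison cells, a log2 fold change of 7.41 ± 0.44 (SE) with an edgeR adjusted p of 6.91e-06. It was detected in 72.5 and 69.04% of double-positive cells and in 1.34 and 1.99% of comparison cells, or 36.2 and 32.7% and 0.392 and 0.392% after thinning to 2000 UMIs. In STMN2-high cells the share was 5.56 and 7.82%, above that of the comparison cells and below that of the double-positive cells.

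SCIN (chr9:82103271-82185254), an actin-severing protein, had 94.5 and 112 CPM against 1.05 and 1.05 CPM, a log2 fold change of 6.64 ± 0.45 (SE) with an edgeR adjusted p of 7.62e-06. VWDE (chr9:81916966-81987106) had 34.9 and 33.3 CPM against 0.231 and 0.391 CPM, a log2 fold change of 6.73 ± 0.47 (SE) with an edgeR adjusted p of 9.65e-06. For both genes the lower of the double-positive libraries exceeded the higher comparison library more than 10-fold. VWDE and SCIN lie close to each other on chromosome 9. SCN3A (chr15:71717330-71824190), a voltage-gated sodium channel subunit, had 229.8 and 190.0 CPM against 3.08 and 3.09 CPM, a log2 fold change of 6.11 ± 0.26 (SE) with an edgeR adjusted p of 6.73e-07. SCN3A is also a neuronal gene, detected in 71.5 and 65.5% of STMN2-high cells and in 70.7 and 65.9% of double-positive cells. Whether neuronal transcripts had a part in its rise was not tested.

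DMRTA2 (chr6:161616646-161622591), a transcription factor of early forebrain and midbrain patterning, had 30.2 and 52.3 CPM against 0.436 and 0.453 CPM, a log2 fold change of 6.54 ± 0.63 (SE) with an edgeR adjusted p of 5.54e-05. IRX6, an Iroquois homeobox factor, had 23.2 and 26.1 CPM against 0.282 and 0.474 CPM, and MTNR1A, a melatonin receptor, 21.3 and 20.3 CPM against 0.436 and 0.453 CPM. Their log2 fold changes were 6.00 ± 0.36 (SE, edgeR adjusted p = 1.15e-05) and 5.54 ± 0.34 (SE, edgeR adjusted p = 1.41e-05). TENT5A, a poly(A) polymerase, MET, the receptor of hepatocyte growth factor, and EGFL6, a secreted protein with EGF repeats, completed the 10 largest rises. MET had 40.4 and 36.1 CPM against 1.28 and 1.24 CPM, a log2 fold change of 4.94 ± 0.34 (SE, edgeR adjusted p = 8.02e-06). In each of these 10 genes both double-positive libraries lay above both comparison libraries, which the rule for naming them required.

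**Figure D1:**
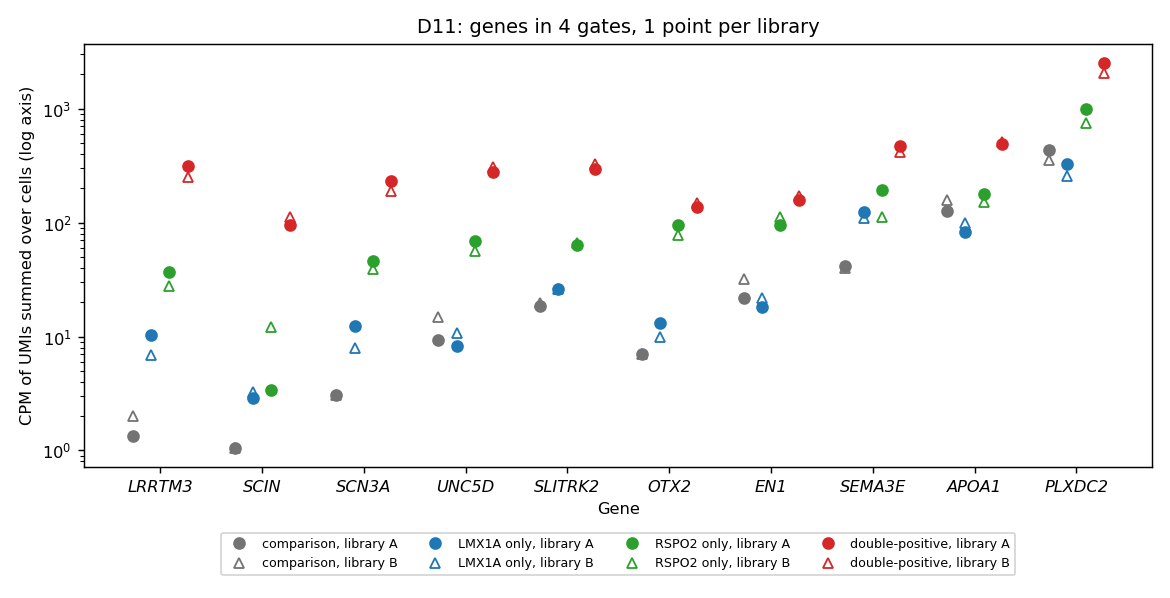
CPM of 10 genes on a log axis in 4 gates of D11 cells, with filled circles for library A and open triangles for library B. Double-positive cells (red) lie above the comparison (grey), LMX1A-only (blue) and RSPO2-only (green) cells in both libraries for each gene, with LRRTM3 at 316 and 250.5 CPM against 1.33 and 2.00 CPM in the comparison cells.

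Position along the neural tube was read from lists of regional transcription factors. In this contrast 5.12% of all genes were higher and 5.64% lower, the shares beside which counts of list members are to be read. Of 10 tested midbrain and isthmus genes 3 were higher (OTX2, OTX1 and EN1) and 2 lower (GBX2 and IRX2), with a median log2 difference of -0.31 beside 0 over all genes. OTX2 had 136 and 148 CPM in double-positive cells against 7.08 and 6.96 CPM, a log2 fold change of 4.37 ± 0.28 (SE) with an edgeR adjusted p of 6.91e-06. It was detected in 69.3 and 70.3% of double-positive cells against 5.13 and 5.44% of comparison cells. EN1 had 158 and 172 CPM against 21.8 and 31.8 CPM, a log2 fold change of 2.64 ± 0.50 (SE) with an edgeR adjusted p of 0.00479, and its call was kept with the matched comparison cells described below.

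GBX2, the anterior hindbrain factor, was low in both gates and lower in the double-positive cells, at 3.09 and 2.84 CPM against 21.5 and 24.3 CPM, a log2 fold change of -2.92 ± 0.36 (SE) with an edgeR adjusted p of 4.44e-04. OTX1 had 14.6 and 16.4 CPM against 5.47 and 4.39 CPM (log2 fold change 1.69 ± 0.26). Of 17 tested forebrain and diencephalic genes BARHL2 and FOXB1 were higher and LHX2 was lower (median -0.06). Against the matched comparison cells described below 3 of 14 tested were higher, LHX5, BARHL2 and FOXB1, and none was lower (median 1.12). That comparison called 4.03% of all genes higher and 2.55% lower. Of 3 tested hindbrain and spinal genes 2 were lower, among them HOXA2, which had 0.251 and 0.213 CPM against 1.44 and 1.30 CPM.

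Of 14 tested floor plate markers outside the rule none was called higher and 3 were lower, NTN1, SPON1 and DISP3 (median -0.04). In this contrast 5.12% of all genes were higher and 5.64% lower. With the library as a block 6 of the 14 markers were higher, FOXA1, FERD3L, LMX1B, SLIT2, SLIT3 and CMTM8, and 4 lower. The block fit called 15.6% of all genes higher and 18.2% lower. Against the matched comparison cells described below SLIT3 was higher and NTN1, SPON1 and DISP3 were lower, beside 4.03% and 2.55% of all genes. SPON1, a secreted floor plate adhesion protein, had 572 and 484 CPM against 1977 and 1548 CPM, a log2 fold change of -1.71 ± 0.29 (SE) with an edgeR adjusted p of 0.00254. NTN1, the axon attractant netrin, had a log2 fold change of -0.89 ± 0.23 (SE, edgeR adjusted p = 0.0259). The comparison cells were required to have floor plate genes and the double-positive cells were not, so this direction cannot be told apart from the choice of cells. FOXA1, a close relative of FOXA2, had 396 and 358 CPM against 306 and 279 CPM and did not pass the test (log2 fold change 0.39 ± 0.20), while with the library as a block it did (0.39 ± 0.07 (SE, edgeR adjusted p = 0.00208)).

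Of 11 tested midbrain floor plate transcription factors OTX2 and EN1 were higher and none was lower (median 0.39). With the library as a block 7 were higher, among them LMX1B, FOXA1 and FERD3L, and 2 lower, EN2 and NFE2L1. Of all genes 5.12% were higher and 5.64% lower without the block, and 15.6% and 18.2% with it.

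The WNT pathway is where R-spondin acts, and 4 of its 41 tested members were higher and 1 lower (median -0.01), where 5.12% of all genes were higher and 5.64% lower. WNT5A, a ligand of the non-canonical branch made by the midbrain floor plate, had 88.4 and 80.5 CPM against 38.03 and 34.6 CPM, a log2 fold change of 1.25 ± 0.15 (SE) with an edgeR adjusted p of 3.12e-04. Its relative WNT5B rose by the same size, with a log2 fold change of 1.25 ± 0.25 (SE, edgeR adjusted p = 0.00609). Among antagonists APCDD1, a membrane inhibitor of WNT signals, had 98.5 and 132 CPM against 14.3 and 22.3 CPM, a log2 fold change of 2.68 ± 0.36 (SE) with an edgeR adjusted p of 5.04e-04.

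Of the receptors, LGR4, which binds R-spondins, did not pass the test (log2 fold change 0.01 ± 0.21, 63.7 and 56.7 CPM against 66.8 and 55.02 CPM). ZNRF3, the ligase that R-spondins remove, was higher by 0.61 ± 0.17 (SE, edgeR adjusted p = 0.0380), a call lost with the matched comparison cells (adjusted p = 0.0908 by edgeR). FZD5, a Frizzled receptor, was lower, at 2.26 and 1.64 CPM against 17.6 and 14.02 CPM, a log2 fold change of -2.99 ± 0.43 (SE) with an edgeR adjusted p of 8.91e-04. The block added calls in both directions, to 11 higher and 10 lower of the 41, beside 15.6% and 18.2% of all genes.

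Of 15 tested hedgehog genes 3 were higher and 2 lower (median 0.07), beside 5.12% of all genes higher and 5.64% lower. The transcription factors of the pathway split: GLI2 and GLI3 were higher (log2 fold changes 2.63 ± 0.50 and 1.12 ± 0.21), while GLI1, a target that reports pathway activity, was lower by -2.45 ± 0.55, a call lost with the matched comparison cells. NKX2-2, a ventral target of hedgehog, had 3.34 and 4.91 CPM against 19.1 and 16.7 CPM, a log2 fold change of -2.07 ± 0.23 (SE) with an edgeR adjusted p of 1.55e-04. DISP1, which releases hedgehog from producing cells, rose by 0.96 ± 0.18. In the BMP and TGF-beta list 2 of 22 were higher (BMP2 and BMP7) and 2 lower (BMPR1B and LEFTY2), beside the same shares of all genes. In the FGF list 1 of 19 was higher (ETV5) and 2 were lower (FGFR4 and IL17RD), again beside these shares.

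Genes of adhesion and axon guidance moved in both directions, where 5.12% of all genes were higher and 5.64% lower. Of 29 tested adhesion genes 11 were higher and 7 lower (median 0.36). CDH2, the neural cadherin of progenitors, had 1295 and 1137 CPM against 456 and 390.1 CPM, a log2 fold change of 1.55 ± 0.19 (SE) with an edgeR adjusted p of 2.65e-04. LRRTM1, a relative of LRRTM3, moved the other way, at 4.85 and 4.76 CPM against 72.6 and 61.7 CPM, a log2 fold change of -3.77 ± 0.24 (SE) with an edgeR adjusted p of 7.01e-06.

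Of 46 tested guidance genes 10 were higher and 10 lower (median -0.05), beside the same shares of all genes. UNC5D, a netrin receptor, had 281 and 305 CPM against 9.26 and 14.9 CPM, a log2 fold change of 4.62 ± 0.63 (SE) with an edgeR adjusted p of 5.67e-04. EPHA3, an ephrin receptor, had 392 and 286 CPM against 31.03 and 26.4 CPM, a log2 fold change of 3.59 ± 0.37 (SE) with an edgeR adjusted p of 8.07e-05. Among receptors of secreted semaphorins NRP2 was higher and NRP1 lower (log2 fold changes 1.54 ± 0.31 and -1.80 ± 0.23). The lipoprotein receptor family member LRP1B, named here after its values were seen, had the highest level of these surface proteins, at 4897 and 4232 CPM against 270.1 and 255 CPM, a log2 fold change of 4.15 ± 0.28 (SE) with an edgeR adjusted p of 7.95e-06.

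The study names or shows 13 genes with its dopaminergic cluster in these libraries beside LMX1A and RSPO2, and a list chosen on these samples is not independent evidence. Of the 12 that were tested 6 were higher, 1 was lower (HOXA2) and 5 did not pass the test (median 1.10). The shares of all genes were 5.12% higher and 5.64% lower. PLXDC2, a plexin domain membrane protein, had 2510.3 and 2053 CPM against 433 and 358 CPM, a log2 fold change of 2.56 ± 0.23 (SE) with an edgeR adjusted p of 3.45e-05. SLITRK2, a synaptic adhesion protein, had 294 and 326 CPM against 18.6 and 19.9 CPM, a log2 fold change of 4.04 ± 0.31 (SE) with an edgeR adjusted p of 1.41e-05. SEMA3E, a secreted semaphorin, had 474 and 421 CPM against 41.9 and 40.1 CPM, a log2 fold change of 3.48 ± 0.41 (SE) with an edgeR adjusted p of 2.33e-04.

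APOA1, the main protein of high-density lipoprotein, had 486 and 507 CPM against 127 and 157 CPM, a log2 fold change of 1.83 ± 0.29 (SE) with an edgeR adjusted p of 0.00146. SEMA3A rose by 2.57 ± 0.41 (SE, edgeR adjusted p = 0.00155), and neither APOA1 nor SEMA3A passed the test when either D11 library was left out. PDE3A, a cyclic nucleotide phosphodiesterase, was low in both gates on D11, at 19.6 and 18.5 CPM against 2.23 and 2.39 CPM, a log2 fold change of 3.07 ± 0.23 (SE) with an edgeR adjusted p of 1.09e-05.

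CLU, the chaperone clusterin, had 372 and 319 CPM against 453 and 561 CPM and did not pass the test, a log2 fold change of -0.53 ± 0.42 (SE) with an edgeR adjusted p of 0.551. TH was low in both gates, with a mean of 0.748 CPM in double-positive and 1.98 CPM in comparison cells. Its log2 fold change was -1.34 ± 0.70 (SE, edgeR adjusted p = 0.308). CLU and TH were both lower past the threshold with the library as a block or with the D11 libraries alone, while against the matched comparison cells described below TH had a log2 fold change of 0.15 ± 0.62 (SE, edgeR adjusted p = 0.971). NR4A2, a nuclear receptor needed by dopaminergic neurons, had 83.3 and 92.4 CPM against 83.7 and 97.2 CPM, a log2 fold change of -0.01 ± 0.36 (SE, edgeR adjusted p = 0.992).

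In this contrast 5.12% of all genes were higher and 5.64% lower. Of 11 tested dopamine neuron genes 3 were higher, 1 lower (RET) and 7 did not pass (median 0.29). Among the 3 were DRD2, a dopamine receptor, and SLC10A4, a transporter of synaptic vesicles. SLC10A4 had 31.8 and 48.4 CPM against 1.49 and 1.98 CPM, a log2 fold change of 4.55 ± 0.43 (SE) with an edgeR adjusted p of 4.72e-05. Of 17 tested neuron genes none was higher and 5 were lower (median -0.72), among them TUBB3 and ELAVL3, in cells that the rule had limited for STMN2. Against the matched comparison cells TUBB3 alone was lower (median -0.19). With the library as a block 10 were lower and 2 higher, MAP2 and RBFOX3, beside 18.2% and 15.6% of all genes.

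Of 26 tested neural progenitor genes PAX6 was higher and 5 were lower (median -0.21), including the Notch targets HES4, HES5 and HEY1. The shares of all genes were 5.12% higher and 5.64% lower. HES5 had 14.5 and 14.9 CPM against 41.99 and 42.95 CPM, a log2 fold change of -1.50 ± 0.32 (SE) with an edgeR adjusted p of 0.0102. FABP7, a lipid carrier of radial glia, had 26.1 and 34.4 CPM against 86.5 and 90.2 CPM, a log2 fold change of -1.51 ± 0.24 (SE) with an edgeR adjusted p of 0.00155.

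The lists that follow are read beside 5.12% of all genes higher and 5.64% lower. Of 5 tested choroid plexus genes 3 were higher, FOLR1, CLIC6 and OTX2 (median 2.95). CLIC6, a chloride channel protein, had 12.5 and 12.02 CPM against 0.436 and 0.227 CPM, a log2 fold change of 5.23 ± 0.42 (SE, edgeR adjusted p = 2.95e-05). TTR, the defining transcript of that tissue, had 0.167 and 0 CPM against 0.0257 and 0.0824 CPM. BMP7 was the 1 of 13 tested roof plate and dorsal genes that passed, and it was higher (log2 fold change 1.09 ± 0.23). Of 14 retinoid and lipid transport genes 4 were higher (RARB, STRA6, APOA1 and APOE) and 2 lower, among them CRABP1, with a median of 0.64.

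The remaining lists gave few calls, where 5.12% of all genes were higher and 5.64% lower. In the heat shock list 0 of 11 genes passed edgeR's test, 2 had an unadjusted p under 0.05, and DESeq2 called 1. With the library as a block 3 passed, 1 higher and 2 lower, beside 15.6% and 18.2% of all genes. Of 14 hypoxia and glycolysis genes PFKFB3 and ADM were higher, of 14 interferon-stimulated genes IFIT1 was higher, of 8 fibroblast markers COL1A2, and of 6 endothelial and immune markers KDR. Of 2 tested pluripotency genes 0 passed in edgeR, 0 had an unadjusted p under 0.05 and DESeq2 called 0. COL1A2 had 5.68 and 4.12 CPM against 1.67 and 1.46 CPM, and KDR, a VEGF receptor, 5.27 and 5.33 CPM against 0.231 and 0.288 CPM.

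Most of the largest falls were cell cycle genes. Of 14 tested mitosis genes all 14 were lower in double-positive cells (median -3.74), beside 5.64% of all genes. Of 16 DNA replication genes 12 were lower and none higher (median -1.21). The double-positive rule limits mitosis genes and STMN2 while the comparison rule does not. The comparison was therefore repeated with comparison cells held to the same limits (1955 and 2383 cells). The doublet caller marked 2.92% and 3.44% of these matched cells against 7.19% and 9.79% of double-positive cells. With these matched cells 0 of 14 mitosis genes passed in edgeR, 1 had an unadjusted p under 0.05, and PCNA and CDT1 were the replication genes still lower. Of 15075 genes tested there 607 (4.03%) were higher and 385 (2.55%) lower, and 563 of the 801 rises and 335 of the 883 falls were called again in the same direction. The share of calls that were rises moved from 47.6% to 61.2%.

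Of the 10 largest falls against all comparison cells HLA-DRA alone was not a mitosis gene. HLA-DRA, the alpha chain of a class II histocompatibility molecule as named in the files, had 3.93 and 4.34 CPM against 88.5 and 89.9 CPM, a log2 fold change of -4.40 ± 0.66 (SE) with an edgeR adjusted p of 0.00113. Against the matched cells, which had 60.5 and 65.9 CPM, it was lower by -3.93 ± 0.67 (SE, edgeR adjusted p = 0.00356). Its call was lost when either D11 library was left out.

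After HLA-DRA the next largest falls against the matched cells, listed after these values were seen, were LRRTM1, EPHB1, NELL2, GALNTL6, PDE1A, GASK1B, PTH1R, SHISAL1 and TNFSF13B. LRRTM1 fell by -3.67 ± 0.24 (SE, edgeR adjusted p = 8.56e-06), from 63.5 and 58.9 CPM. EPHB1, an ephrin receptor, had 6.69 and 6.19 CPM against 90.2 and 58.8 CPM, a log2 fold change of -3.53 ± 0.54 (SE) with an edgeR adjusted p of 0.00186. NELL2, a secreted ligand of axon guidance receptors, had 13.5 and 20.1 CPM against 192 and 189 CPM, a log2 fold change of -3.50 ± 0.26 (SE) with an edgeR adjusted p of 2.06e-05. LRRTM3, SCIN, OTX2 and PLXDC2 stayed higher, with log2 fold changes of 7.31, 6.81, 5.30 and 2.66.

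Several calls named above depended on these limits or on the block. ZNRF3, ETV5 and BMP7 were not called higher against the matched cells, and GLI1, LHX2, HEY1, CRABP1 and ELAVL3 were not called lower. With the library as a block and all comparison cells, 15.6% of all genes were higher and 18.2% lower. In that fit 20 of 46 guidance genes were higher and 18 lower, 14 of 29 adhesion genes were higher and 11 lower, and 5 of 26 neural progenitor genes were higher and 11 lower. Of 15 hedgehog genes 5 were higher and 5 lower, of 22 BMP and TGF-beta genes 3 and 9, of 19 FGF genes 5 and 6, and of 14 retinoid and lipid transport genes 7 and 4.

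**Figure D2:**
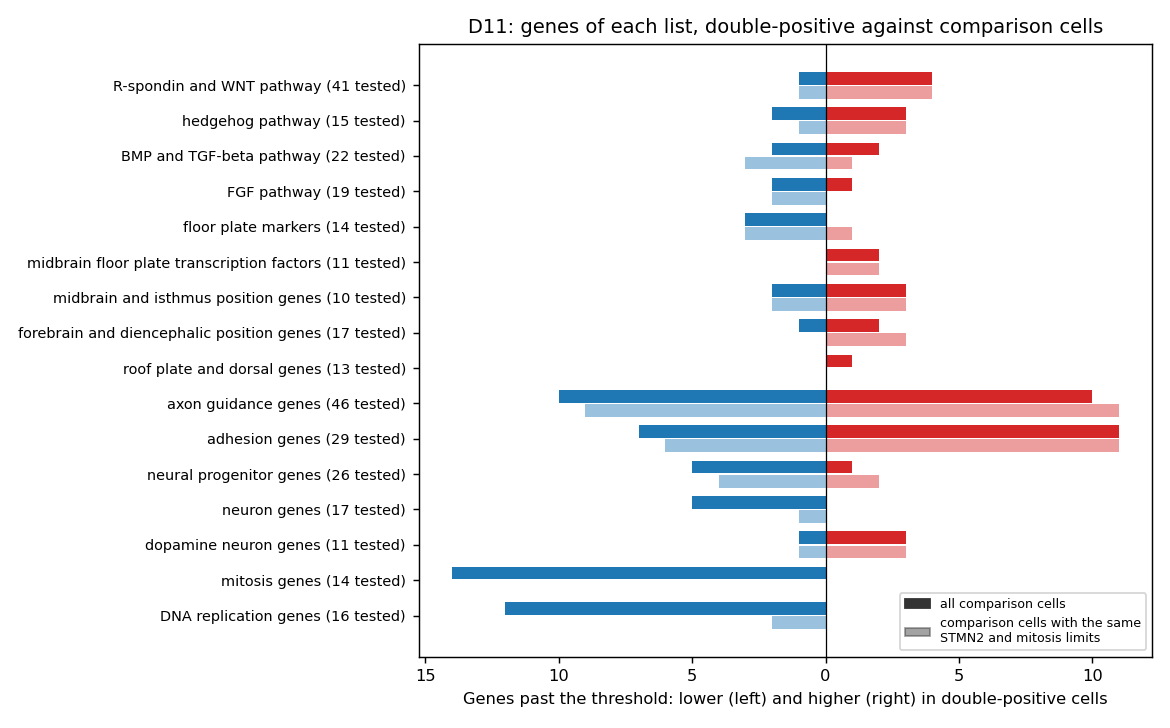
Number of genes of 16 lists that were higher (red, right) or lower (blue, left) in double-positive than in comparison cells on D11, by edgeR at an adjusted p under 0.05, with all comparison cells (dark) and with comparison cells under the same STMN2 and mitosis limits (light). The bars of the mitosis list go from 14 lower to 0 and those of the DNA replication list from 12 to 2, while the adhesion list has 11 higher in both, 10 of them the same genes.

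The next comparison asked what separated double-positive cells from LMX1A-only cells, and it was added after the data were seen. Both gates have LMX1A, but its level was higher in double-positive cells (values above), and RSPO2 makes the split. Genes that follow LMX1A or RSPO2 from cell to cell therefore differ by the choice of cells. Of 15476 genes tested 1231 (7.95%) were higher and 1227 (7.93%) lower in the double-positive cells, together 15.9%, and 4615 passed with the library as a block. LMX1A-only cells were shallower, with a median of 9868 and 9945 UMIs, and they include cells whose RSPO2 was not captured. The doublet caller marked 3.38% and 3.82% of them against 7.19% and 9.79% of double-positive cells, whose part was not tested. LRRTM3 had 10.3 and 6.90 CPM in LMX1A-only cells, a log2 fold change of 5.05 ± 0.19 (SE) with an edgeR adjusted p of 8.91e-10. OTX2 had 13.2 and 9.81 CPM there and EN1 18.3 and 21.9 CPM, with log2 fold changes of 3.62 ± 0.14 (SE, edgeR adjusted p = 8.91e-10) and 3.01 ± 0.18 (SE, edgeR adjusted p = 4.34e-08).

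In this comparison the WNT list had 13 of 40 tested members higher and 2 lower (median 0.02), beside 7.95% and 7.93% of all genes. The rises covered ligands (WNT5A and WNT5B), both ligases that R-spondins remove (ZNRF3 and RNF43), the target and feedback gene AXIN2, the nuclear factors LEF1 and TCF7, the carrier WLS, and the antagonists DKK1, SFRP1, FRZB, WIF1 and APCDD1. The falls were LGR4 and FZD5. AXIN2 had 33.9 and 30.9 CPM in double-positive cells against 25.8 and 23.7 CPM, a log2 fold change of 0.37 ± 0.11 (SE) with an edgeR adjusted p of 0.0329. WLS, which carries WNT proteins to the surface, had 961 and 977 CPM against 598 and 716 CPM, a log2 fold change of 0.54 ± 0.14 (SE) with an edgeR adjusted p of 0.0151. Whether these genes had a different fold in this comparison than against the floor plate cells was not tested.

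For the lists that follow, 7.95% of all genes were higher and 7.93% lower in this comparison. Of 19 tested FGF genes 6 were higher, including the FGF response genes ETV1, ETV4 and ETV5, and 4 were lower. Of 47 guidance genes 10 were higher and 19 lower, and of 28 adhesion genes 12 were higher and 6 lower. The floor plate list had 5 of 14 members lower and none higher.

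Several genes were lower in double-positive than in LMX1A-only cells. S1PR1, a lipid receptor, had 5.18 and 4.20 CPM against 41.7 and 51.8 CPM, a log2 fold change of -3.35 ± 0.26 (SE) with an edgeR adjusted p of 3.74e-07. NEGR1, a neuronal growth regulator of the immunoglobulin family, had 104 and 95.8 CPM against 832 and 699.5 CPM, a log2 fold change of -2.95 ± 0.17 (SE) with an edgeR adjusted p of 2.03e-08. CCDC80, a secreted matrix protein, had 37.7 and 39.7 CPM against 254 and 294 CPM, a log2 fold change of -2.84 ± 0.22 (SE) with an edgeR adjusted p of 3.98e-07. In all 3 the libraries of the 2 gates did not overlap, a condition that the rule for naming the largest falls sets.

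Against RSPO2-only cells, a comparison also added after the data were seen, 849 genes (5.49%) were higher and 894 (5.78%) lower, together 11.3% of 15476, and 3137 passed with the library as a block. LMX1A makes this split, the level of RSPO2 was higher in double-positive cells (values above), and RSPO2-only cells may include cells whose LMX1A was not captured. Genes that follow LMX1A or RSPO2 from cell to cell therefore differ by the choice of cells here too. In several leading genes RSPO2-only cells lay between the LMX1A-only and the double-positive cells. OTX2 had 94.9 and 78.3 CPM in them and EN1 95.4 and 113 CPM, with log2 fold changes of 0.82 ± 0.13 (SE, edgeR adjusted p = 8.92e-04) and 0.75 ± 0.18 (SE, edgeR adjusted p = 0.0158) in favour of the double-positive cells. LRRTM3 had 36.7 and 27.9 CPM, a log2 fold change of 3.25 ± 0.20 (SE) with an edgeR adjusted p of 3.26e-07.

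Genes of the forebrain and diencephalon separated the 2 gates: of 15 tested 10 were lower in double-positive cells and none was higher (median -2.28). Of all genes 5.78% were lower and 5.49% higher. NKX2-1, the hypothalamic and ventral forebrain factor, had 5.10 and 6.26 CPM in double-positive cells against 44.1 and 25.7 CPM, a log2 fold change of -2.46 ± 0.31 (SE) with an edgeR adjusted p of 1.21e-04. WNT8B, a ligand of the caudal forebrain, had 9.70 and 8.25 CPM against 41.8 and 50.04 CPM, a log2 fold change of -2.28 ± 0.18 (SE) with an edgeR adjusted p of 1.63e-06. Of 10 tested midbrain and isthmus genes 6 were lower too, OTX1, EN2, PAX5, SPRY1, GBX2 and IRX2, and 2 were higher, OTX2 and EN1 (median -1.05). PAX5, a factor of the midbrain and isthmus, had 4.10 and 6.75 CPM against 30.5 and 65.8 CPM. Its log2 fold change was -3.10 ± 0.32 (SE) with an edgeR adjusted p of 1.71e-05. The RSPO2-only sums rest on 177 and 288 cells, of which the doublet caller marked 10.2% and 7.99%.

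FABP7 had 173 and 277 CPM in RSPO2-only cells, far above the 26.1 and 34.4 CPM of double-positive cells, and its log2 fold change was -2.81 ± 0.20 (SE, edgeR adjusted p = 8.21e-07). Beside 5.49% of all genes higher and 5.78% lower, 3 of 40 WNT list members were higher (WNT5A, FRZB and WLS) and 12 lower. In the DNA replication list 12 of 17 were lower. Of 14 floor plate markers 6 were higher, among them FOXA1 and FERD3L, and SPON1 was lower.

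The double-positive cells were not uniform in their floor plate genes, and a further comparison, added after the data were seen, set the 471 and 535 members with at least 2 of FOXA2, SHH and CORIN against the 155 and 205 with none. The split uses these 3 genes, so genes that follow them from cell to cell differ by the choice of cells. Members with floor plate genes were deeper, at a median of 12876 and 12674 against 10448 and 9860 UMIs, and the doublet caller marked 9.34% and 13.1% of them against 3.87% and 4.88%, whose part in the values that follow was not tested. Of 14873 genes tested 144 (0.968%) were higher in the members with floor plate genes and 89 (0.598%) lower, together 1.57%, with 1795 at an unadjusted p under 0.05 and 843 past the threshold with the library as a block. DIRAS3, a RAS-related GTPase, had 590.2 and 521 CPM against 154 and 149 CPM, a log2 fold change of 1.83 ± 0.13 (SE) with an edgeR adjusted p of 2.31e-07. CCDC80 had 51.7 and 62.7 CPM against 10.3 and 10.04 CPM, a log2 fold change of 2.45 ± 0.25 (SE) with an edgeR adjusted p of 2.49e-05. CD36, a fatty acid receptor, had 101 and 67.7 CPM against 23.3 and 16.6 CPM, a log2 fold change of 2.05 ± 0.22 (SE) with an edgeR adjusted p of 6.57e-05.

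Of 13 tested forebrain and diencephalic genes 4 were lower in members with floor plate genes than in members without them. These were NKX2-1, DBX1, WNT8B and BARHL2, and none was higher (median -1.45). Of all genes 0.598% were lower and 0.968% higher. NKX2-1 had 14.2 and 17.1 CPM in members without floor plate genes and 2.08 and 1.58 CPM in those with them, and DBX1, a factor of intermediate progenitor domains, had 15.5 and 30.6 and 0.961 and 1.87 CPM. SIM2, a transcription factor, had 22.6 and 25.1 and 8.01 and 6.90 CPM, a log2 fold change of -1.74 ± 0.25 (SE, edgeR adjusted p = 0.00112) for members with floor plate genes.

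The leading genes of the double-positive cells did not pass in this split. LRRTM3 had 333 and 239 CPM with and 288 and 248 CPM without floor plate genes, a log2 difference of 0.05 ± 0.16 (SE, edgeR adjusted p = 0.951). OTX2 had 128 and 141 and 134 and 159 CPM, a log2 difference of -0.18 ± 0.14 (SE, edgeR adjusted p = 0.681). PMCH, the precursor of a hypothalamic peptide, had 7.05 and 93.9 CPM with and 112 and 249 CPM without floor plate genes, and did not pass the test.

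Levels of 4 other genes were also read by entry into the gate, given without a test because the counts of LMX1A and RSPO2 chose the cells. Members with exactly 1 UMI of each gene were shallower, with a median of 8658 and 7202 UMIs against 12739 and 12661 in those with at least 3 of each. The doublet caller marked 5.13% and 15.3% of the former and 5.33% and 7.65% of the latter. LRRTM3 had 36.6 and 37.8 CPM in the former and 368 and 299.6 CPM in the latter. PLXDC2 had 551 and 701 and 2828 and 2371 CPM, OTX2 67.5 and 42.3 and 142 and 164 CPM, and SPON1 976 and 1202 and 512 and 410.3 CPM. The members at the edge of the rule thus lay nearer to the comparison cells in all 4 genes.

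The same rule was applied to D28 and D45, libraries that it was not written for. Double-positive cells made up 7.46% (95% exact binomial interval 7.02 to 7.93) and 8.14% (7.71 to 8.60) of cells within the depth limits on D11. The shares were 4.20% and 1.98% on D28 (388 and 219 cells) and 1.25% and 4.23% on D45 (131 and 471 cells). Both genes were detected in 9.10% and 4.74% of the STMN2-high cells of D28, at a median of 7659 and 8932 UMIs, and in 2.63% and 6.75% of those of D45, at 10381.5 and 9184 UMIs. In each later library the double-positive share lay below this value, unlike on D11, so the later shares are not read as the size of a cell population. The mean was 7.80% ± 0.48 (SD, n = 2) on D11, 3.09% ± 1.57 on D28 and 2.74% ± 2.11 on D45.

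Both D11 libraries lay above all 4 later ones, but 2 libraries against 2 cannot give a two-sided exact permutation p below 0.333, which was the value for D11 against each later day. On D28 library A had the higher share and on D45 library B, and the ranges of these 2 days overlapped. Thinned to 2000 UMIs, 3.81% and 4.09% of D11 cells, 1.62% and 0.930% of D28 cells and 0.409% and 0.898% of D45 cells met the rule. The intervals cover counting error only.

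**Figure D3:**
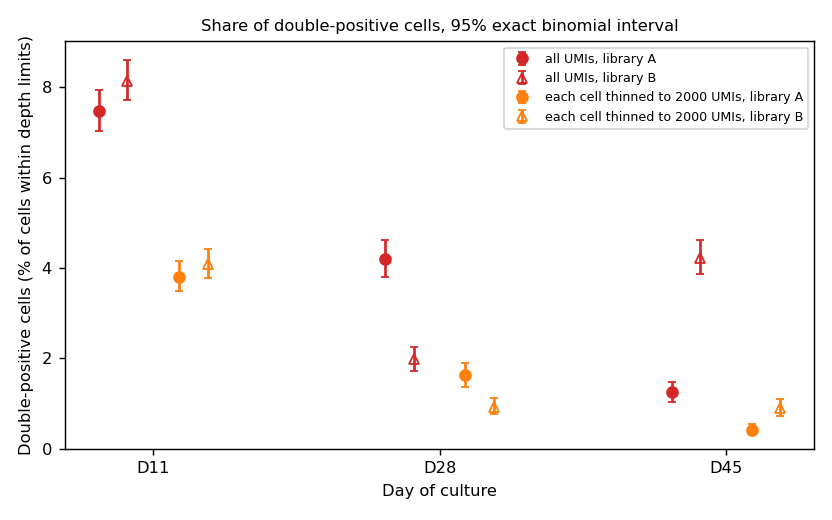
Share of double-positive cells among cells within the depth limits, in percent, for each library of D11, D28 and D45, with all UMIs (red) and with every cell thinned to 2000 UMIs (orange), and 95% exact binomial intervals as bars. Both D11 libraries (7.46% and 8.14%) lie above the later ones, of which D28 A and D45 B lie near 4.20%.

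None of FOXA2, SHH and CORIN was detected in 15.9% and 17.2% of the double-positive cells of D11, 25.8% and 28.3% of those of D28 and 58.8% and 72.4% of those of D45. The 6 other floor plate markers summed to 825 and 1186 CPM on D28 and 653 and 597 CPM on D45, and the roof plate markers to 215 and 239 CPM and then 820 and 534 CPM. In comparison cells the roof plate sums were 42.6 and 45.1 CPM on D28 and 176 and 61.4 CPM on D45. Fibroblast markers (4) summed to 404 and 232 CPM in the double-positive cells of D28 and 38.3 and 129 CPM in those of D45, with none at 0, and in comparison cells to 242 and 42.8 CPM and then 251 and 209 CPM. By D28 12.3% of all genes rose in double-positive cells, and by D45 16.9%. Of the longer fibroblast list 5 of 8 genes rose and 1 fell in double-positive cells by D28, and 6 rose by D45 (median 3.56). Their part in the values of the later days was not tested.

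The day comparisons set cells that met the same rule on different days against each other. Whether the gate held the same kinds of cell on each day was not tested. Between D11 and D28, 1930 genes (12.3%) rose and 1611 (10.3%) fell in double-positive cells, together 22.6% of 15658. The number was 918 and 936 without D11 library A or B and 6483 without D28 library B. Between D11 and D45, 2653 genes (16.9%) rose and 2527 (16.1%) fell, together 33.1%. It was 2384 and 2176 without D11 library A or B, 2737 without D45 library B and 7814 without D28 library A.

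Of the 10 largest D11 rises 6 fell by D28 and 4 did not pass the test, and 8 fell by D45 while DMRTA2 and TENT5A did not pass. They were chosen for high D11 values, which are also the baseline here, so falls are favoured by that choice. PLXDC2 had 2510.3 and 2053 CPM on D11, then 561 and 822 by D28 and 372 and 448 by D45, log2 fold changes against D11 of -1.95 ± 0.22 (SE, edgeR adjusted p = 1.59e-04) and -2.71 ± 0.23 (SE, edgeR adjusted p = 7.16e-06). APOA1 went from 486 and 507 CPM to 9.51 and 8.31 and 4.61 and 9.59 CPM, with log2 fold changes of -5.98 ± 0.37 (SE, edgeR adjusted p = 2.48e-06) and -6.21 ± 0.37 (SE, edgeR adjusted p = 6.84e-07). For both genes no later library reached the lower D11 library.

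LRRTM3 fell to 159 and 148 CPM on D28 and 66.4 and 27.7 CPM on D45, by -1.08 ± 0.33 (SE, edgeR adjusted p = 0.0392) and -2.90 ± 0.37 (SE, edgeR adjusted p = 1.29e-04) on the log2 scale. SCN3A fell to 8.95 and 12.3 and 6.00 and 6.76 CPM, by -4.54 ± 0.26 and -5.24 ± 0.27. SLITRK2 had 121 and 239.7 CPM on D28, a log2 fold change of -1.04 ± 0.28 (SE) with an edgeR adjusted p of 0.0215, a call lost in 6 of the settings tried, and 64.1 and 53.2 CPM on D45, a log2 fold change of -2.66 ± 0.30 (SE) with an edgeR adjusted p of 5.73e-05. IRX6 and MTNR1A had no UMI in either D45 sum, and against a floor of 3 counts over both libraries they were at least 78.5-fold and 66.3-fold lower than on D11.

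Among other falls, LIN28B, an RNA-binding protein of early development, had 108 and 92.1 CPM on D11, then 4.10 and 12.3 by D28 and 1.38 and 0.946 by D45, falls of -3.94 ± 0.34 (SE, edgeR adjusted p = 2.15e-05) and -6.78 ± 0.44 (SE, edgeR adjusted p = 1.2e-06) on the log2 scale. C1QA, a complement subunit, went from 46.6 and 41.9 CPM to 0.187 and 0 and 0 and 0.270 CPM, and TRPA1, a cation channel, from 189.6 and 152 CPM to 1.31 and 3.99 and 2.77 and 2.03 CPM. By D45, 13 of 16 DNA replication genes and 10 of 14 mitosis genes had fallen and none had risen, beside 16.1% of all genes falling. On D28 the counts were 1 and 2, beside 10.3% of all genes.

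The 10 largest rises by D45 were those of AQP4, SLCO1C1, GPR37L1, SCG2, SYT10, SPARCL1, BCAN, CALCR, DAPL1 and NTS. Whether other kinds of cell within the later gates had a part in these rises was not tested. SCG2, a protein of secretory granules, had 1.59 and 1.21 CPM on D11 and 1557 and 2224 CPM on D45, and NTS, the precursor of the peptide neurotensin, 0.418 and 1.14 and 200.2 and 826 CPM. SPARCL1, a secreted protein of astrocytes, had 1.84 and 2.77 CPM on D11, then 48.3 and 18.95 by D28 and 2300.1 and 2701 by D45, a rise by D45 of 9.82 ± 0.73 (SE, edgeR adjusted p = 2.81e-06) on the log2 scale. BCAN, a proteoglycan of brain matrix, reached 213 and 206 CPM from 0.167 and 0.213 CPM. Of the neural progenitor list SLC1A3, a glutamate transporter of radial glia and astrocytes, had 245 and 256 CPM on D45 and 1.17 and 1.42 CPM on D11, and FABP7 rose on both days, to 276 and 272 and 615 and 602 CPM, by 2.97 ± 0.25 (SE, edgeR adjusted p = 2.04e-05) and 4.08 ± 0.26 (SE, edgeR adjusted p = 1.07e-06). AQP4, a water channel of astrocytes, had no UMI on D11 and 73.3 and 98.8 CPM on D45, at least 747-fold higher against a floor of 3 counts over both D11 libraries.

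PDE3A rose from 19.6 and 18.5 CPM to 345 and 388 CPM on D28 and 2491 and 2125 CPM on D45, by 4.05 ± 0.23 (SE, edgeR adjusted p = 1.4e-06) and 6.67 ± 0.25 (SE, edgeR adjusted p = 9.43e-08). CLU rose to 4741 and 2019 and 4165 and 3909 CPM, by 3.14 ± 0.46 (SE, edgeR adjusted p = 7.51e-04) and 3.30 ± 0.46 (SE, edgeR adjusted p = 2.74e-04). In the comparison cells PDE3A had 2.23 and 2.39 CPM on D11 and 916 and 1083 CPM on D45, and CLU 453 and 561 and then 5656 and 4498 CPM, a change of days that was not tested there. TH reached 8.58 and 4.32 and 6.46 and 8.11 CPM, with log2 fold changes of 2.94 ± 0.74 (SE, edgeR adjusted p = 0.0156) and 3.04 ± 0.74 (SE, edgeR adjusted p = 0.00829), in cells limited to fewer than 3 UMIs of STMN2.

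**Figure D4:**
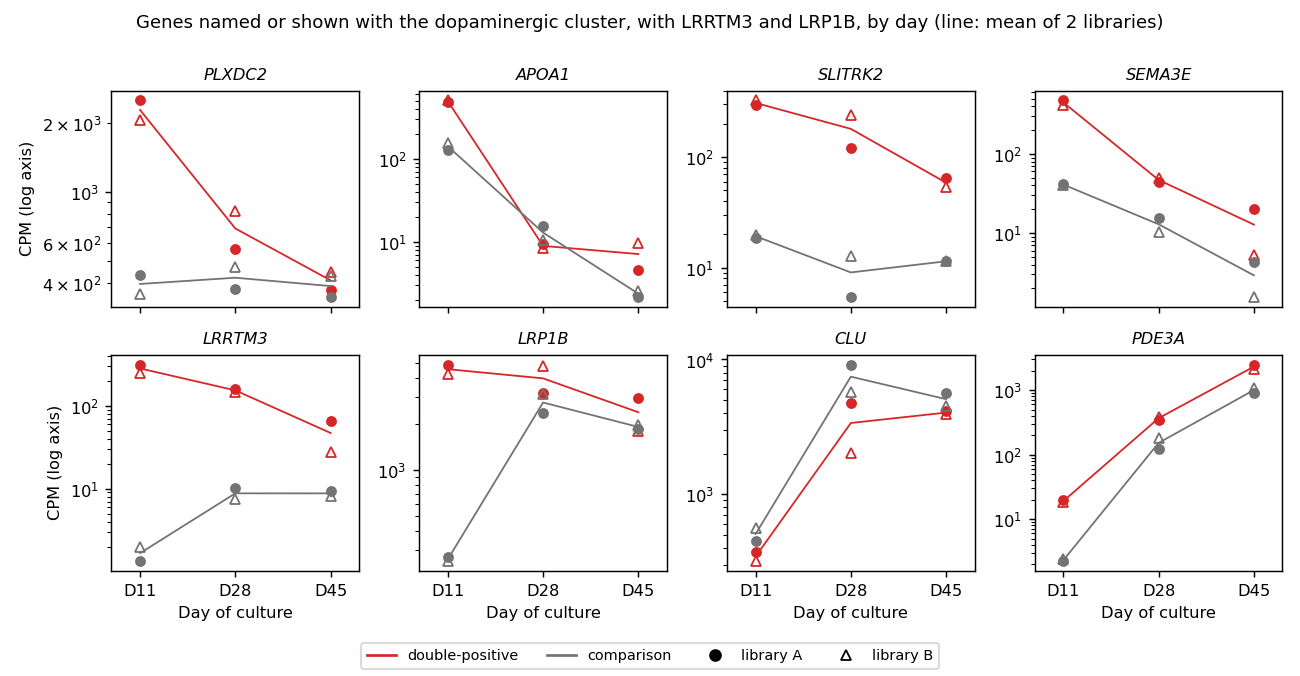
CPM on a log axis of 8 genes on D11, D28 and D45 in double-positive (red) and comparison (grey) cells, with filled circles for library A, open triangles for library B and lines through the means. PLXDC2, APOA1, SEMA3E and LRRTM3 fall in the double-positive cells, SLITRK2 stays above the comparison cells on all days, and CLU and PDE3A rise in the double-positive cells and lie higher on D45 than on D11 in the comparison cells.

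Of all genes 12.3% rose and 10.3% fell by D28, and 16.9% rose and 16.1% fell by D45. By list, 14 of 26 neural progenitor genes rose and 6 fell by D28, and 11 rose and 8 fell by D45. Of 17 neuron genes 10 rose by D28 and 9 by D45, and none fell on either day. Of 14 floor plate markers 1 rose and 6 fell by D28, and 1 rose and 9 fell by D45, the riser being DISP3 on both days. In the hedgehog list 1 of 15 rose and 5 fell by D28, and 1 rose and 7 fell by D45, with PTCH1, SMO, DISP1, SUFU and NKX6-1 among the falls on both days. Of 14 interferon-stimulated genes 8 rose by D28 and 4 by D45.

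IFI6, an interferon-induced protein, had 16.05 and 6.90 CPM on D11, then 1314 and 1389 by D28 and 299 and 342 by D45, and in the comparison cells of D28 it had 3002 and 2517 CPM. In the FGF list, beside 10.3% of all genes falling by D28, none of 19 rose and 8 fell, ETV1, ETV4, ETV5 and DUSP6 among them. By D45 FGFR2 and IL17RD rose and 6 fell, the same 4 included, beside 16.9% and 16.1% of all genes.

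Of 13 roof plate and dorsal genes 7 rose and 1 fell by D28, when 12.3% of all genes rose, and 8 rose and 1 fell by D45, when 16.9% did. MSX1, a homeobox factor of dorsal midline and midbrain floor plate, had 4.10 and 2.63 CPM on D11, then 9.51 and 10.97 by D28 and 46.1 and 29.1 by D45, with log2 fold changes of 1.40 ± 0.39 (SE, edgeR adjusted p = 0.0256) and 3.22 ± 0.38 (SE, edgeR adjusted p = 7.91e-05). RSPO1, another R-spondin, had no UMI on D11, and was at least 47.2-fold higher on D28 and at least 30.7-fold higher on D45 against a floor of 3 counts over both D11 libraries.

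The same gates were then applied to the cells of D28 and D45 by their own counts, and the gate contrast was read as the mean of both days. Genes that follow the gate genes from cell to cell differ by the choice of cells there as on D11. Of 15658 genes 1029 (6.57%) were higher and 1097 (7.01%) lower in double-positive than in comparison cells, together 13.6%, and 4542 passed with the library as a block. The comparison gates of D45 held 69 and 104 cells. The number was 1344 and 1340 without D11 library A or B, 1207 without D45 library A and 903 without D45 library B.

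Position genes of forebrain and midbrain were among those that differed. Of 17 forebrain and diencephalic genes 7 were higher and none lower (median 0.20), beside 6.57% and 7.01% of all genes. Of 10 midbrain and isthmus genes 4 were higher and 2 lower. OTX2 was again higher, at 88.1 and 118 and then 74.3 and 62.03 CPM in double-positive cells and 2.82 and 1.64 and then 4.29 and 1.03 CPM in comparison cells, a log2 fold change of 5.13 ± 0.26 (SE) with an edgeR adjusted p of 7.85e-07. DMRTA2 was higher too, with a log2 fold change of 5.72 ± 0.55 (SE, edgeR adjusted p = 4.49e-05). The D45 comparison sums held fewer than 10 UMIs each of OTX2, DMRTA2 and WNT8B.

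WNT8B had 13.6 and 52.9 and 61.8 and 64.7 CPM on the later days, a log2 fold change of 4.75 ± 0.45 (SE) with an edgeR adjusted p of 4.03e-05. BARHL1, a homeobox factor of the diencephalon, had 0.251 and 0 CPM on D11 and 10.3 and 8.31 and then 8.76 and 12.97 CPM. NKX2-1 had 73.3 and 60.4 CPM on D45 against 10.7 and 6.19 CPM, a log2 fold change over both days of 1.61 ± 0.29 (SE, edgeR adjusted p = 0.00291).

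EN1 fell by day in double-positive cells, to 62.7 and 34.2 CPM on D28 and 10.6 and 22.03 CPM on D45. Its later gate contrast did not pass, a log2 fold change of 0.75 ± 0.43 (SE) with an edgeR adjusted p of 0.311. With the library as a block it did, a log2 fold change of 0.69 ± 0.16 (SE) with an edgeR adjusted p of 0.00961. EN2, its paralogue, was higher in the later double-positive cells, at 12.9 and 13.97 and 9.23 and 27.3 CPM against 3.17 and 6.74 and 1.43 and 5.68 CPM, a log2 fold change of 1.80 ± 0.41 (SE) with an edgeR adjusted p of 0.0118.

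**Figure D5:**
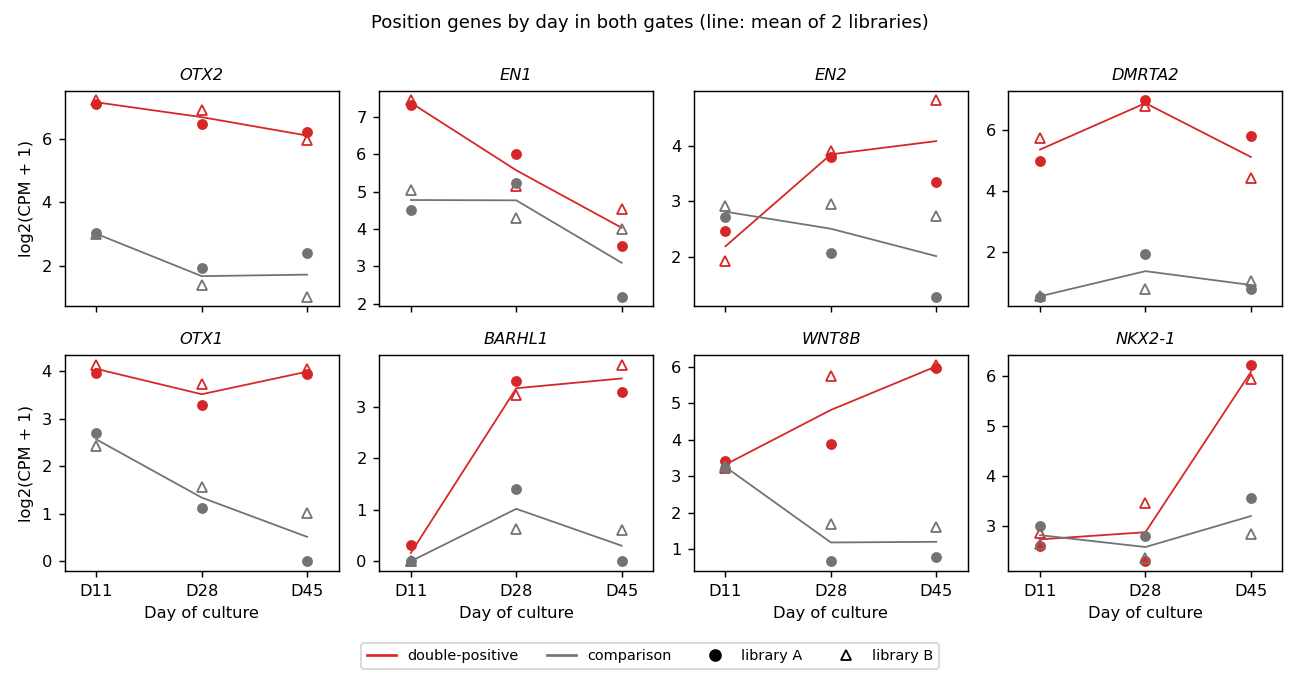
log2(CPM + 1) of 8 position genes on D11, D28 and D45 in double-positive (red) and comparison (grey) cells, with filled circles for library A, open triangles for library B and lines through the means. OTX2 and DMRTA2 lie above the comparison cells on all days, EN1 falls, and BARHL1 and WNT8B rise in the double-positive cells after D11.

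Genes of signalling differed as well on the later days, where 6.57% of all genes were higher and 7.01% lower. In the WNT list 8 of 41 were higher and 4 lower, with WNT5A and APCDD1 higher and FZD5 lower as on D11 and LGR4 lower. In the BMP and TGF-beta list 7 of 22 were higher, including BMP4, BMP7 and the targets ID1, ID2 and ID3, and 2 were lower. Of 14 floor plate markers none was higher and 6 were lower, in a contrast whose comparison rule asks for floor plate genes. Of 14 hypoxia and glycolysis genes 8 were lower and none higher, and of 14 interferon-stimulated genes 4 were lower.

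SLITRK2 was higher by 3.22 ± 0.24 (SE, edgeR adjusted p = 8.88e-06) and LRRTM3 by 3.17 ± 0.30 (SE, edgeR adjusted p = 3.74e-05) on the log2 scale. CDH8, a cadherin, had 86.6 and 195 and then 215 and 259.6 CPM in double-positive cells against 3.52 and 10.8 and then 8.59 and 4.65 CPM, a log2 fold change of 4.63 ± 0.31 (SE) with an edgeR adjusted p of 4.76e-06. CD36 and PDE1A, a calcium-dependent phosphodiesterase, were lower, by -4.39 ± 0.32 and -3.58 ± 0.26. PLXDC2, higher on D11, did not pass on the later days (0.30 ± 0.15 (SE, edgeR adjusted p = 0.247)), while with the library as a block it did (0.30 ± 0.06 (SE, edgeR adjusted p = 0.00230)). The size of the contrast was tested between D11 and the later days for all genes, where 1076 of 15658 (6.87%) differed. The log2 fold change of double-positive over comparison cells was the higher on D11 for 533 genes (3.4% of those tested) and the lower for 543 (3.47%).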

How the data were processed

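The study made 6 single-cell libraries (2 per day, 10x Genomics GEM-X 3' kit). Cell Ranger 8.0.1 and the Sscrofa11.1 genome were used by the authors to obtain UMI counts per gene and barcode, and these raw counts were deposited without the cell limits that the paper sets in Seurat 4.3.0. Each matrix held 30477 genes, of which 14636 without a symbol carried 13.7% of UMIs. Coordinates come from the RefSeq annotation of the same build.

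Counts were summed per library and gate, and 12 sums (6 groups of day and gate, at least 20 cells each) entered 1 fit in edgeR 4.0.16 (R 4.3.3), with TMM scaling, its default filter on low counts and Benjamini-Hochberg adjustment at 0.05. The paper's Wilcoxon test was not used, because cells are not replicates. Contrasts with LMX1A-only and RSPO2-only cells and within the gate were fitted on D11 sums alone. Doublets were scored with Scrublet (scanpy 1.11.5, 0.4% per 1000 cells) and kept. Its own threshold marked 402 and 268 cells on D11 and at most 4 in a later library. The top-scoring cells up to the expected rate were called instead, 889 and 1950 on D11. Alternatives were their removal, DESeq2 1.42.0, size factors of that tool inside edgeR, all genes unfiltered, each library left out, other gates and the library as a block. The fits were tested on simulated data.

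The 2 gates of a library are paired by it, and their deviations correlated by 0.248 on D11, 0.588 on D28 and 0.0714 on D45. Letters A and B do not pair days (correlations of -0.165, 0.0163 and -0.0305).

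Named genes are the 10 that rose most and the 10 that fell most per comparison, past the threshold, with a symbol, at least 20 CPM in every library of the higher group and no overlap of libraries. The 13 genes that the study names or shows, members of the 27 lists and the rule genes were also named. Some genes that this rule names are not reported here. The members, gates and lists were chosen with earlier results of these data known.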

Additional observations from a re-analysis of the deposited data

Results flagged for a closer look

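The contrast between double-positive and comparison cells was tested for a difference between D11 and the mean of D28 and D45, as an interaction in edgeR, and 9 of the 32 named genes of the D11 contrast differed past the threshold. These genes include the 10 largest rises and 10 largest falls on D11, so a larger contrast on D11 is favoured by the way they were chosen, and the values are a description.

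The D11 contrast was larger by 4.24 on the log2 scale for LRRTM3, by 6.74 for VWDE, by 5.96 for SCN3A, by 3.22 for TENT5A and by 5.75 for EGFL6. It was larger by 2.25 for PLXDC2 and by 1.91 for PDE3A, although the level of PDE3A itself was far higher on the later days in both gates. For the mitosis genes BUB1B and KIF4A the difference was -2.29 and -2.73, so that they were lower in double-positive cells by more on D11. The double-positive rule limits mitosis genes and the comparison rule does not, so this direction cannot be told apart from the choice of cells. The cause of these differences was not tested.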

How the results depend on the processing

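With the library as a replicate block, which pairs the 2 gates of a library, the D11 gate contrast called 5288 genes. The contrast on D28 and D45 called 4542. For the day contrasts the block was the letter A or B across days, which does not pair them, with 3311 and 5013 genes called. Without a replicate each in turn, the D11 contrast called between 211 and 3984 genes, D28 against D11 between 918 and 6483, D45 against D11 between 2176 and 7814, and the later gate contrast between 903 and 2927. The D11 libraries alone called 5222 genes on D11, the matched comparison cells 992, and cells of 5000 to 15000 UMIs 1089 in the later contrast. The cause of these moves was not tested, beyond the fewer sums in each left-out fit.

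Matched comparison cells reversed DLGAP5 to 0.14, CCNB1 to 0.25 and ASPM to 0.0153 on the log2 scale, none past the threshold. Thinning to 2000 UMIs moved the D11 share to 3.95%, the D28 share to 1.28% and the co-detection of RSPO2 in LMX1A cells from 41.6% to 34.8%, and a limit of 2 UMIs of each gene moved the D11 share to 6.10%. Of all D11 calls, 70.3% of rises and 37.9% of falls were called again with matched comparison cells, and 98.0% and 95.5% with doublets removed. Counts for single genes cover only the largest rises and falls of each comparison and the genes that the study names or shows. Those rises and falls were chosen past the threshold with no overlap of libraries, so a kept call is favoured by that choice. In the D11 contrast 479 such values kept their side of the threshold over the alternatives, 16 lost and 9 gained a call. The numbers were 448, 11 and 1 for D28, 469, 2 and 4 for D45, and 465, 1 and 9 for the later contrast. A change of direction with neither fit past the threshold, as for TH against the matched cells, was counted as kept. With 2 libraries per day the precision is set by the libraries, and genes near 1 CPM rest on few UMIs.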
